A study of Mus musculus with 4 samples.

Results

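Fibroblasts of the mouse pancreas were examined in single-cell RNA of islet preparations, leaving out the Ccl21a-rich and Ccl19-rich stroma of lymphoid structures. They were selected on measured counts, by a rule on marker genes and depth given below, and numbered 240 of 20845 kept cell barcodes in 4 libraries. The 4 groups, with 1 library each, were late db/db with intervention at 98 days of age, late db/db at 98 days, early db/db at 70 days and normal control at 98 days. The genotype label of every group, the control included, reads db/db on C57BL/KsJ, a line that lacks the long form of the leptin receptor and becomes obese and diabetic, while the growth protocol also names male C57BL/6 mice. The sources used here say neither what the intervention was, beyond an abbreviation left unexpanded, nor how many mice stand behind each library. Late and early db/db differ in age as well as in name. The early db/db matrix has a name like that of another control, and its group was taken from the label.

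Fibroblasts are the mesenchymal cells that lay down the collagens, proteoglycans and elastic fibres of connective tissue. In the pancreas they lie along ducts, vessels and lobule borders and around islets, and they also make chemokines, complement proteins and growth factor antagonists. They share many genes with mural cells, which wrap vessels and carry Rgs5, and with the reticular stroma of lymphoid tissue, which draws lymphocytes in with Ccl21a and Ccl19. Islet preparations hold them as a small contaminant of the endocrine cells.

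A barcode was kept with at least 1000 UMIs (unique molecular identifiers, each standing for 1 captured RNA molecule) spread over 500 genes or more, of which no more than 20% were mitochondrial. A kept barcode counted as a fibroblast with at least 3 UMIs of Pdgfra and Dcn together, at least 3 of Col1a1, Col1a2 and Col3a1 together, under 10 of Ccl21a and Ccl19, at most 2 of Rgs5, 0 of the leukocyte gene Ptprc, at most 1 of the endothelial genes Pecam1 and Cdh5, and under 20% of its UMIs from the insulin genes. This left 32 of 5115 kept barcodes of the intervention library (0.626%, exact 95% interval 0.428 to 0.882), 25 of 6301 of late db/db (0.397%, 0.257 to 0.585), 167 of 4800 of early db/db (3.48%, 2.98 to 4.04) and 16 of 4629 of the control (0.346%, 0.198 to 0.561). These Clopper-Pearson intervals cover counting error only. The shares describe these islet preparations, not the tissue. No cell barcode of a fibroblast was shared between libraries, and pairs of libraries shared 3 to 11 kept barcodes.

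The limit on Rgs5 alone kept 32, 6, 60 and 14 barcodes out in the intervention, late db/db, early db/db and control libraries. The limit on Ccl21a and Ccl19 alone kept out 0, 74, 3 and 0, so the reticular cells were nearly all in late db/db, where their median was 561 UMIs of the pair. Of the fibroblasts, 28, 17, 147 and 9 held 0 UMIs of the pair in the same order, and 1, 1, 5 and 1 held 5 to 9, the highest being 8. In late db/db 2 barcodes fell just outside that limit, with 10 to 19 UMIs. The requirement for Pdgfra and Dcn alone kept out 7, 12, 11 and 16.

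Depth per fibroblast had medians of 4946, 7479, 6060 and 8715 UMIs and 1854, 2632, 2244 and 2848 genes in the intervention, late db/db, early db/db and control libraries. The summed UMIs over the fibroblasts were 171881, 184813, 1209381 and 131241, so values of early db/db rest on the most molecules and those of the control on the fewest. Levels below are CPM, a gene's UMIs per 1000000 UMIs of the summed fibroblasts of a library, with the mitochondrial genes and 7 hormone genes left out of the total. Because each group is 1 library, no test was possible, the spread between animals is unknown, and every interval below covers counting error only. Lepr, the gene behind the db phenotype, had 8, 0, 25 and 3 UMIs in the fibroblasts, and a gene-level count does not separate the long form, so it is no check of the genotype labels.

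Other cells' RNA was present in the fibroblast sums and differed between libraries. The 3 genes of the beta cell list came to 99465, 7792, 3687 and 20481 CPM in the intervention, late db/db, early db/db and control fibroblasts. The median share of hormone UMIs per fibroblast was 4.93%, 0.856%, 0.377% and 2.42%, and 6, 0, 1 and 3 fibroblasts had over 10%. The 6 acinar enzyme genes came to 907, 1384, 9323 and 151 CPM, against 918, 3295, 15581 and 299 in the rest of each library. In early db/db 3234 of the 10648 acinar UMIs were in 1 fibroblast. The alpha cell genes of the control stood at 36632 CPM, of which 2622 of 4364 UMIs were in 1 cell. In early db/db 11468 of 11786 gamma cell UMIs were likewise in 1 cell. In late db/db 180 of 185 duct UMIs were in 1 cell. The 6 endothelial genes summed to 26.7, 28.4, 75.3 and 58.8 CPM, the 6 macrophage genes to 73.4, 34.0, 21.9 and 25.2, and the 4 adipocyte genes were at 0 UMIs in all 4 libraries. The Schwann cell factor Sox10 was also at 0 throughout. Free RNA, taken as the profile of the other kept barcodes scaled to the insulin UMIs of the fibroblasts, came to 11.8% of fibroblast UMIs in the intervention library, 2.27% in late db/db and 0.797% in early db/db. With it subtracted, 184 genes were higher and 246 lower in late against early db/db, and 67 and 116 in the intervention against late db/db, against 176 and 247, and 75 and 119, without the subtraction. Of these, 176 and 238, and 62 and 112, were the same genes. The part of single cells with RNA of another type was not tested, except where a value is given.

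Genes that the rule did not use included many known from fibroblasts of other tissues. The profiles rest on cells picked by their expression and are descriptions, with no test. Among the 167 fibroblasts of early db/db, Igfbp6, a binding protein for insulin-like growth factor II, stood at 977 CPM against 0.821 in the other 4633 kept barcodes of that library. Dpep1, a membrane dipeptidase, stood at 1737 CPM against 1.51, and Smoc2, a calcium-binding matrix protein, at 1017 against 1.53. Clec3b (tetranectin) had 691 against 1.13 CPM, and Penk, the enkephalin precursor, 700 against 1.20. The matrix protein gene Fbln1 had 652 against 1.62 CPM, Mmp2, which encodes a gelatinase, 574 against 1.84, and Hsd11b1, whose enzyme regenerates active glucocorticoid, 1146 against 3.69. The chemokine gene Cxcl14 had 2647 against 8.91 CPM and the growth factor gene Ptn 1748 against 7.89. Of 4118 genes with enough counts, 844 were at least 2-fold higher in these fibroblasts and 1008 were at least 2-fold lower. Of the genes used by the rule, Pdgfra was seen in 17, 23, 134 and 13 fibroblasts of the intervention, late db/db, early db/db and control libraries. Lum (lumican), which the rule did not use, was seen in 23, 23, 144 and 16.

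The reticular stroma of late db/db differed from the fibroblasts of the same library in much more than the chemokines that separated them. The 25 fibroblasts had 1077 CPM of Hsd11b1 against 1.85 in the 74 reticular cells, 1219 against 5.54 of the BMP-family gene Gdf10, and 510 against 4.62 of the laminin chain gene Lama2. Lpl (lipoprotein lipase) had 2416 against 49.9 CPM, Sparcl1, a matrix protein of the SPARC family, 2155 against 36.9, and the stem and stromal antigen gene Cd34 233 against 9.23. In the other direction Clu (clusterin) had 45.4 CPM in fibroblasts against 10258 in reticular cells, Grem1, a BMP antagonist, 34.0 against 1513, and Il7, the lymphocyte survival cytokine, 5.67 against 208. Ccl21a, which defined the split, had 22.7 against 36691 CPM in its main gene entry. Both kinds of cell carried C3 (2359 against 9435 CPM) and Cxcl12 (1633 against 4565), while Cxcl14 went the other way, with 2144 CPM in fibroblasts against 23.1 in reticular cells.

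Mural cells of early db/db were taken as the 232 barcodes with at least 3 Rgs5 UMIs, under 3 of Pdgfra and Dcn, and the same limits on leukocyte and endothelial genes. The fibroblasts had 1059 CPM of Serpinf1 (pigment epithelium-derived factor), 1737 of Dpep1, 652 of Fbln1 and 223 of Cd34, genes used by neither gate, against 0 UMIs of each in the mural cells. Fibroblasts had 7.88 CPM of Rgs5 against 5679 in mural cells, 2.63 against 561 of the pericyte gene Higd1b, and 3.50 against 473 of the endothelin receptor gene Ednrb. The mural gate itself was mixed, since Spp1 (osteopontin, made by duct epithelium) reached 17334 CPM there in 13.8% of its barcodes.

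Within early db/db, the library with most fibroblasts, the cells were not of a single kind. Clustering of the 240 fibroblasts gave 4 sub-clusters, with 73, 16, 52 and 26 cells of early db/db in sub-clusters 0 to 3. Their genes were also used to form them, so the differences between them are descriptions without a test. Each holds the genes of the rule: Dcn, the small proteoglycan decorin, stood at 18094, 12310.4, 15201 and 11351 CPM.

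Sub-cluster 0 was led by Dlk1, a non-canonical Notch ligand of fetal and adipose precursor cells, with 1222 CPM against 6.41 in the other fibroblasts of early db/db and UMIs in 38 of its 73 cells. Nmb (neuromedin B) stood at 589 against 10.3 CPM and Rspo3, an amplifier of Wnt signalling, at 279 against 25.6. Lpl had 2240 against 378 CPM, Ccl11 (eotaxin, an eosinophil chemokine) 2118 against 468, the ferritin receptor gene Scara5 232 against 43.6, and Gsn (gelsolin, which severs actin) 22741 against 4596. This sub-cluster also held most of the acinar RNA, with a median of 0.266% acinar UMIs per cell against 0.0940%, 0.133% and 0.153% in sub-clusters 1 to 3.

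In sub-cluster 1, 13 of the 16 cells held all 4565 UMIs of Cxcl13, the B cell chemokine, and the highest cell held 1861. Clu stood at 3330 CPM against 10.8 in the other fibroblasts, the NF-kB inhibitor gene Nfkbia at 2057 against 115, the class II antigen gene H2-Ab1 at 348 against 11.9, Enpp2 (autotaxin) at 1091 against 65.8, and the neutrophil chemokine gene Cxcl1 at 1087 against 165. Wt1, a transcription factor gene of mesothelium, had 123 UMIs in 15 of the 16 cells. The mesothelial genes Msln and Upk3b had 60 and 51 UMIs, all in 3 cells of this sub-cluster, and the full mesothelial list summed to 222 UMIs there and to 0 in the other 3 sub-clusters of early db/db. Of those 222 UMIs, 165 were in 1 cell. Cxcl13, Clu and class II genes are shared with lymphoid stroma, so these 16 cells were set beside the 74 reticular cells of late db/db. Ccl21a was at 0 UMIs in them against 36691 CPM in the reticular cells, Ccl19 at 116 against 2562 CPM and the adhesion molecule gene Madcam1 at 0 UMIs against 122 CPM. Cxcl13 was higher, with 21198 against 2795 CPM, and Wt1 stood at 571 against 0.923 CPM. Genes in this comparison were picked after their values were seen.

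Sub-cluster 2 was led by Mgp, the gene of an inhibitor of calcification, which stood at 14077 CPM against 1725, Cst3 (the protease inhibitor cystatin C) at 10668 against 1780, Mfap5, a microfibril protein gene, at 1095 against 224, Cilp at 739 against 242 and Sparc, which binds collagen, at 10413 against 4379. Pi16, the marker of adventitial fibroblasts that line vessels and ducts, had 445 against 158 CPM. Sub-cluster 3 was led by Masp1, a lectin-pathway protease gene, with 333 against 4.38 CPM. Ctla2a (820 against 33.9), Igfbp3, a binding protein of insulin-like growth factors (3031 against 323), Fgl2 (1627 against 196), the elastin gene Eln (811 against 102), Thy1 (1048 against 162), the microfibril-associated gene Mfap4 (2140 against 408) and Gas6, a ligand of TAM receptors (4509 against 987) followed. Pi16 was not particular to sub-cluster 2, since it stood at 491 CPM in sub-cluster 3. It was seen in 23 of the 26 cells there, against 39 of 52 in sub-cluster 2. Of the 127 UMIs behind the 158 CPM above, 112 were in sub-cluster 3.

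**Figure D1:**
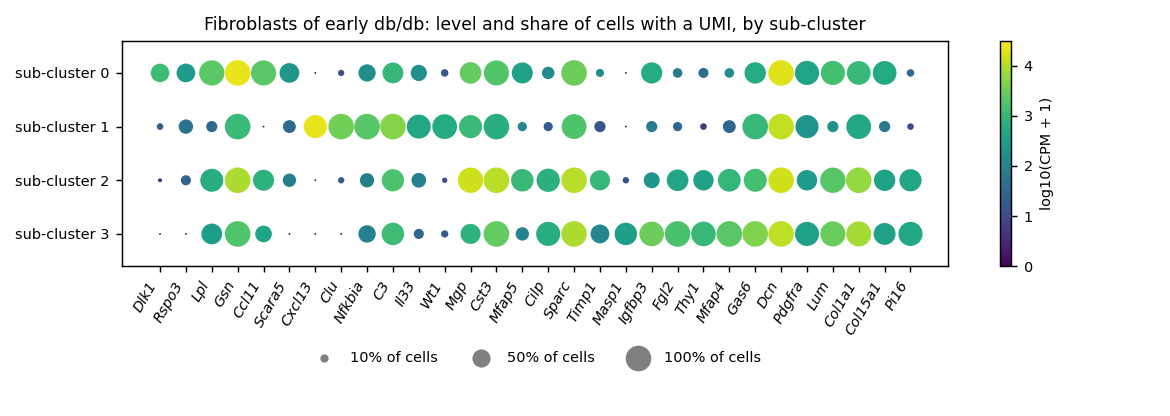
Levels of 30 genes in the 4 sub-clusters of the 167 early db/db fibroblasts, with colour for log10 of CPM plus 1 and dot size for the share of cells with a UMI. Cxcl13 appears in sub-cluster 1 alone, Dlk1 mainly in sub-cluster 0, while Dcn is high in all 4.

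In other tissues of the mouse, Pi16 marks adventitial fibroblasts, often together with Dpp4, and Col15a1, a basement membrane collagen, marks parenchymal ones. Among the 167 early db/db fibroblasts, 49 held UMIs of both Pi16 and Col15a1, 20 of Pi16 alone, 72 of Col15a1 alone and 26 of neither. The cells with both were deeper, with a median of 7503 UMIs against 5059 in those with Col15a1 alone. After thinning each cell to 2000 UMIs, which left 153 cells, Pi16 was seen in 24.8% of early db/db fibroblasts, Col15a1 in 44.4% and Penk in 62.7%. Unthinned, the shares were 41.3%, 72.5% and 84.4%. Insulin-rich barcodes, which should lack these genes, had a UMI in 0%, 0.0618% and 0.0618% after the same thinning, at a median of 56236 UMIs against 6060 in the fibroblasts. Dpp4 gave 1.96% thinned and 7.78% unthinned, against 3.90% thinned in the insulin-rich barcodes. With a share above that of the fibroblasts, those barcodes give no background level for Dpp4. Whether its UMIs arose in the fibroblasts was not tested. The actin gene Acta2 and the actin-binding gene Tagln, which mark contractile cells, were seen in 8.50% and 11.1% of thinned fibroblasts (18.6% and 17.4% unthinned), against 0.124% each in insulin-rich barcodes. Both genes together were seen in 15 of the 167.

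Levels across the 4 libraries follow. Col1a1, Col1a2 and Col3a1, genes of the main fibrillar collagens, were used in the choice of cells, so their levels are given as a description only. Col1a1 stood at 7977, 2098, 3742 and 2963 CPM in the intervention, late db/db, early db/db and control fibroblasts, and Col3a1 at 12020, 4310, 5352 and 6338. Per cell and 10000 UMIs, Col1a1 had a lowest, median and highest value of 14.0, 44.5 and 270 in the intervention library, 1.60, 14.3 and 99.8 in late db/db, 0, 14.4 and 221 in early db/db and 7.04, 23.8 and 110 in the control. The ranges of single cells overlapped between all libraries. Sparc stood at 11746, 3612, 6160 and 9552 CPM, so that the control lay nearer to the intervention library. Cst3 was likewise highest in those 2 libraries, with 8931, 2127, 4403 and 9267 CPM. Sparc and Cst3 are among the leading genes of sub-cluster 2. That sub-cluster held 26 of 32 intervention, 10 of 25 late db/db, 52 of 167 early db/db and 15 of 16 control fibroblasts. The part of this mix in the levels was not tested. Dcn was more even, with 11893, 20053, 14804 and 12331 CPM.

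Signalling genes had other orders. Gsn stood at 3562, 16321, 10342 and 14446 CPM, with the intervention library apart from the other 3. Its per-cell medians were 35.2, 197, 108 and 152 per 10000 UMIs. Cxcl14 stood at 360, 2144, 2647 and 797 CPM, and C3, the central complement component, at 707, 2359, 1962 and 336, so both were low in the intervention and control libraries. Most fibroblasts of those libraries were in sub-cluster 2, and the part of this in the levels was not tested. Fos, a component of the AP-1 factor, stood at 860, 4571, 3874 and 1410 CPM and Jun, its partner, at 1461, 5762, 3514 and 2292. Col15a1 stood at 600, 958, 369 and 873 CPM and Pi16 at 273, 39.7, 243 and 16.8.

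**Figure D2:**
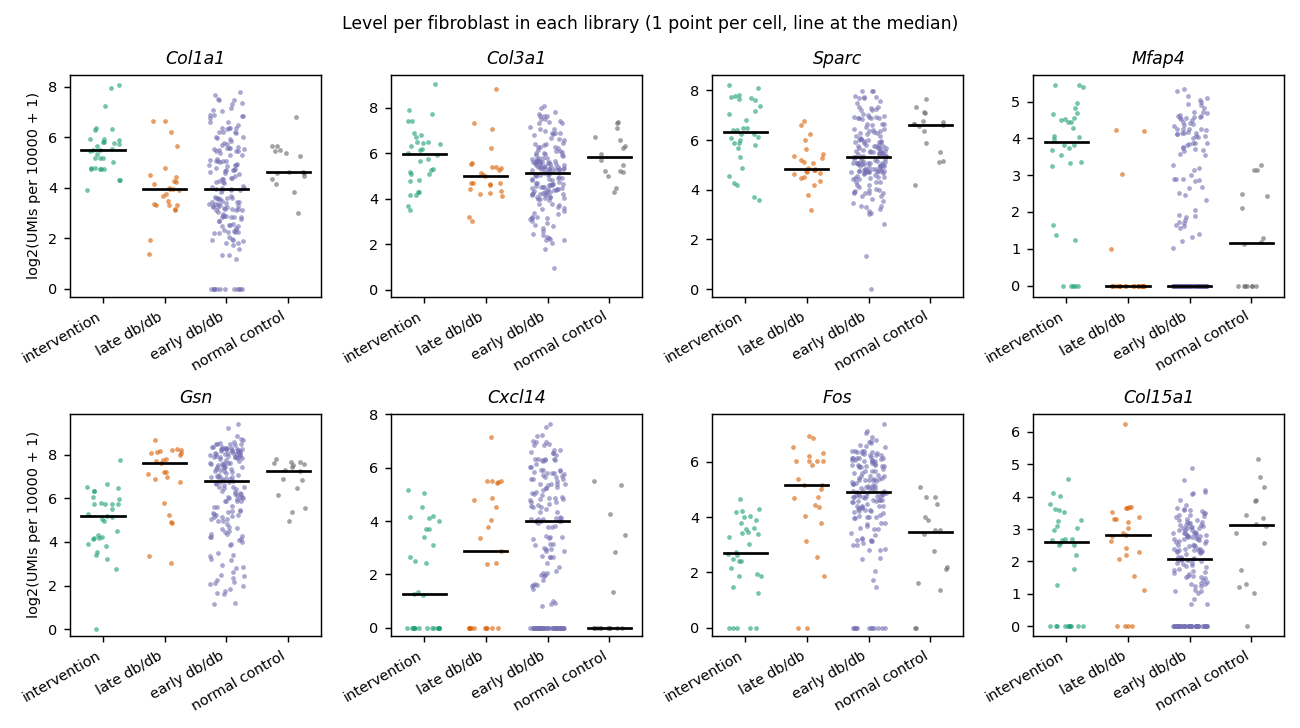
Level of 8 genes in each of the 240 fibroblasts, as log2 of UMIs per 10000 plus 1, in the intervention, late db/db, early db/db and control libraries, with a line at the median. Fos and Gsn sit lowest in the intervention library and Col1a1 highest, with single cells of all libraries overlapping.

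The control held 16 fibroblasts, under the minimum of 20 set for a comparison, so 3 comparisons with it were not made and only its levels are given. A count of 0 there allows up to 25.2 CPM. Against that limit, C1rb, a complement protease gene, was at 0 UMIs in the control and at 140, 193 and 134 CPM in the intervention, late db/db and early db/db libraries, where 12 of 32, 18 of 25 and 87 of 167 cells held it. Barx1, a homeobox gene of stomach mesenchyme, was at 0 UMIs in the control, against 127, 147 and 71.8 CPM. C7, a terminal complement gene, was the reverse, with 327 CPM in 9 of 16 control cells, against 40.0, 11.3 and 7.88 CPM in the other libraries. In the 74 mural cells of the control and the 232 of early db/db, C1rb had 0 and 20 UMIs. Barx1 had 2 and 6 there, and C7 0 and 0. These 3 genes were picked after their values were seen.

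Late db/db, at 98 days, was set against early db/db, at 70 days. A gene was compared if its level reached 50 CPM in 1 of the libraries and its UMIs in both summed to 50 or more. Of 3471 such genes, late db/db was higher by 2-fold or more in 176 (5.07%) and lower by as much in 247 (7.12%). Counts of list genes in this comparison are to be read beside these 2 shares. That made 423 either way (12.2%), of which 364 had an interval of the ratio clear of 0 on the log2 scale (10.5%). The 2 libraries drew on different sub-clusters: late db/db had 14 fibroblasts in sub-cluster 0, 0 in sub-cluster 1, 10 in sub-cluster 2 and 1 in sub-cluster 3, against 73, 16, 52 and 26 in early db/db. Of the 423 genes, 41.6% were higher in late db/db, and this share was 21.6% under TMM scaling, which moved the median of all genes from 0.00 to -0.16, 25.8% within sub-cluster 0 and 29.96% within sub-cluster 2. Within sub-cluster 0, 15 of the 176 higher and 42 of the 247 lower genes passed as well. Within sub-cluster 2, 21 and 47 did, and 1 of the 176 higher genes was lower there.

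Among contractile genes, Acta2 and Tagln were far lower in late db/db. Acta2 had 2 UMIs in 2 of 25 cells (11.3 CPM), against 142 UMIs in 31 of 167 cells (124 CPM) in early db/db, a log2 ratio of -3.45 (-6.51 to -1.57). In the same libraries its log2 ratio was -1.90 in insulin-rich barcodes and 0.67 in mural cells. Tagln had 3 against 237 UMIs, though 45.6% of the early db/db UMIs were in 1 cell. Of 13 contractile genes, 8 had enough counts, 4 were at least 2-fold lower (Acta2, Tagln, Tpm2 and Cnn2), 1 was higher (Postn), and the median log2 ratio was -0.78 beside 0.00 over all genes compared. Within sub-cluster 0 only 1 of these genes could be compared, and it was higher (0.89).

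Pi16 and Ly6a, of the adventitial list, were lower as well. Pi16 stood at 39.7 CPM (7 UMIs in 5 cells) in late db/db against 243 CPM (277 UMIs in 69 cells) in early db/db, a log2 ratio of -2.61 (-3.94 to -1.55). Ly6a (Sca-1), a surface antigen of mesenchymal progenitors, stood at 102 against 407 CPM, a log2 ratio of -1.996 (-2.76 to -1.32). Of 16 genes on the adventitial list, 7 had enough counts, 0 were at least 2-fold higher and 4 were lower (Pi16, Ly6a, Anxa3 and Cd55), with a median of -1.17. Within sub-cluster 0 that median was 0.13 over 4 genes, and within sub-cluster 2 it was -2.67 over 5. These medians cover unequal numbers of genes, so they do not compare the same set.

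Col15a1 and Lpl stood the other way. Col15a1 stood at 958 CPM in late db/db against 369 in early db/db, a log2 ratio of 1.38 (1.11 to 1.64), and 31.4% of the late UMIs were in 1 cell. The basement membrane list had 13 of 14 genes compared, 2 higher (Col15a1 and Col18a1), 0 lower and a median of 0.65, though 55% of the late UMIs of Col18a1 were in 1 cell and under TMM scaling 1 gene was higher. Within sub-cluster 2 the median was -0.23. Lpl stood at 2416 against 968 CPM, a log2 ratio of 1.32 (1.16 to 1.48), and was seen in all 25 late cells. The parenchymal list had 2 of 10 compared genes higher, Col15a1 and Lpl, and 0 lower, with a median of 0.53 and of -0.07 within sub-cluster 2.

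Fibrillar collagens, 3 of which were used in the choice of cells, differed by less than 2-fold. Col1a1 stood at 2098 against 3742 CPM, a log2 ratio of -0.83 (-0.99 to -0.68), and Col3a1 at 4310 against 5352. Of 11 compared genes of the fibrillar and associated collagen list, 0 passed 2-fold in either direction, with a median of -0.21 and of 0.31 within sub-cluster 0. Of 33 compared proteoglycans and glycoproteins 3 were lower, Mfap4 at 136 against 754 CPM (-2.47, -3.12 to -1.89), Fbln5 at 238 against 581 (-1.29, -1.77 to -0.83) and Eln at 113 against 243 (-1.10, -1.84 to -0.45). On the same list, whose median was 0.14, and -0.01 under TMM scaling, 3 were higher, Postn (in 5 of 25 late cells), Sparcl1 and Thbs1 (thrombospondin 1, 941 against 331 CPM). Over all genes compared, 5.07% were higher and 7.12% lower, so these counts do not set the list apart. Of 18 compared proteases and inhibitors, 4 were higher (Mmp14, Adamts1, Adamts5 and Serpine2) and 3 lower (Mmp3, Timp1 and Ctsk). Lox, the lysyl oxidase that crosslinks collagen, stood at 323 against 157 CPM and was the only higher gene of the 16 compared for collagen processing, P4ha2 and Tgm2 being lower.

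Immune genes differed in both directions between the libraries. Irf1, an interferon-response factor, stood at 142 CPM in late db/db against 35.9 in early db/db, a log2 ratio of 1.98 (1.20 to 2.73), while it was lower in the mural cells of the same libraries (-0.89). B2m, the light chain of class I molecules, stood at 709 against 1443 CPM (-1.03, -1.30 to -0.76) and H2-K1 at 681 against 1409 (-1.05, -1.33 to -0.78). Bst2 was lower too (-2.16), so that 1 of 10 compared interferon and class I genes was higher and 3 were lower. Without sub-cluster 1 the lower count was 0. Of 20 compared chemokines and cytokines 4 were higher (Cxcl10, Ccl2, Il6 and Ptgs2) and 4 lower (Cxcl13, Cxcl16, Saa3 and Lcn2), and under TMM scaling 2 were higher and 5 lower. The higher ones rested on few cells, with Il6 in 7 and Ccl2 in 5 of 25 late cells, and 84.2% of the late Cxcl10 UMIs in 1 cell. Cxcl13 had 4 UMIs in late db/db against the 4565 in sub-cluster 1 of early db/db. Late db/db had no cell of sub-cluster 1, and Clu, lower over all cells (-3.81, -5.03 to -2.82), was higher outside it (2.07). Cfb, the complement factor B gene, was lower (11.3 against 116 CPM), the only one of 9 compared complement genes past 2-fold.

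Among the genes with the largest ratios, chosen by rank, Lars2, the mitochondrial leucyl-tRNA synthetase, led with 244 against 30.6 CPM (2.99, 2.31 to 3.68). It was also higher in mural cells (2.34) and insulin-rich barcodes (1.85) of the same libraries, so the difference was not particular to fibroblasts. Tnfaip2 (1.79) was likewise higher in insulin-rich barcodes (2.18). Scara5 stood at 357 against 103 CPM (1.79, 1.32 to 2.24), and by the mean over cells at 1.17. The inhibitory G protein gene Gnai1 had 278 against 91.1 CPM (1.61) and Nrp2, a semaphorin co-receptor, 102 against 29.8 (1.78). The rest of the leading higher genes were Cebpz (1.87), Jup (1.81), Ncoa7 (1.63), Spen (1.57), Abcc9 (1.57) and Eps8 (1.56), each with under 50 late UMIs.

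On the lower side H19, an imprinted noncoding RNA, had 0 UMIs in late db/db against 69 in 9 cells of early db/db, which is at least 3.55-fold lower against the floor of 3 UMIs. Ctla2a had 1 UMI against 218 (-5.07, -10.38 to -2.58) and Masp1 1 against 80 (-3.63, -8.95 to -1.11), both leading genes of sub-cluster 3. Apod, which carries small lipids, had 34.0 against 309 CPM (-3.18, -4.64 to -2.05). Mmp3 (-4.05), Fam180a (-3.84), Lxn (-3.57) and Ptp4a3 (-3.47) each had a single UMI in late db/db. Trf, the transferrin gene, was lower over all cells (-3.31), and in mural cells of the same libraries (-3.81). Within sub-cluster 2 its ratio was 1.57, on few counts, since all late db/db fibroblasts together held 7 UMIs of it.

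Other lists follow by their counts, beside 5.07% higher and 7.12% lower over all 3471 genes compared. A count of 1 gene does not set a list apart from those shares. Pdgfrb, a growth factor receptor gene, was higher and Nbl1 lower among 22 compared growth factors and receptors. The Wnt inhibitor gene Wif1 was the only lower one of 9 compared Wnt and hedgehog genes, with UMIs in 1 of 25 late cells. Mt2, a metallothionein, was higher among 12 antioxidant genes, with 53.6% of its late UMIs in 1 cell. Of 10 compared genes of retinoid and lipid handling Lpl was higher and Rbp4, Fabp4, Apod and Plin2 were lower. Of 15 stromal transcription factors Barx1 was higher and Wt1 lower, and of 3 compared cell cycle genes 0 passed 2-fold. Of 22 immediate early and heat shock genes Fosb and Socs3 were higher, and Ier3, Hspb1 and Myc lower. The lymphoid stroma list had 8 compared genes, of which Cxcl13 and Clu were lower.

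The comparison of the intervention with late db/db covers groups of the same labelled age. Of 956 genes with enough counts, 75 were 2-fold or more higher in the intervention library (7.85%) and 119 lower by as much (12.4%). Counts of list genes in this comparison are to be read beside those 2 shares. All 194 either way (20.3%) had an interval clear of 0 (20.3%). At these depths the limit of 50 summed UMIs alone puts the interval of any gene past 2-fold clear of 0. The intervals therefore add nothing to the count here. Of them 38.7% were higher, and 28.6% when hormone and mitochondrial UMIs stayed in the denominator. The intervention had 26 of its 32 fibroblasts in sub-cluster 2 and 6 in sub-cluster 3, against 10 and 1 of 25 in late db/db, whose other 14 were in sub-cluster 0. Within sub-cluster 2 the split was 50%, and 42 of the 75 higher and 46 of the 119 lower genes passed there as well.

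Immediate early genes, which are switched on within minutes of a stimulus and also by tissue dissociation, were lower in the intervention fibroblasts. Fos stood at 860 CPM in 27 of 32 cells against 4571 in 23 of 25 cells of late db/db, a log2 ratio of -2.41 (-2.69 to -2.14). Its per-cell lowest, median and highest values were 0, 5.46 and 23.9 per 10000 UMIs in the intervention library against 0, 34.8 and 120 in late db/db, and the ranges overlapped. Fosb stood at 387 against 2257 CPM (-2.54, -2.97 to -2.14), Jun at 1461 against 5762 (-1.98, -2.20 to -1.77) and Socs3, the feedback inhibitor of cytokine signalling, at 180 against 1100 (-2.61, -3.25 to -2.03). Atf3, a stress-response factor, had 5 UMIs against 87 (-3.89, -5.55 to -2.61), with 39.1% of the late UMIs in 1 cell. Of 19 compared genes of this list 16 were at least 2-fold lower, 0 were higher, and the median log2 ratio was -1.79 beside 0.07 over all genes. Within sub-cluster 2 it was -1.78, with 15 of 18 lower. The ratio of Dnajb1, a heat shock cochaperone gene, was 1.45 there. It rests on few counts, since all intervention fibroblasts together held 9 UMIs of that gene.

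The same genes leaned lower in other cells of the intervention library too, with medians nearer 0. Medians of this list were -0.81 in mural cells, with 5 of 21 at least 2-fold lower, -0.70 in insulin-rich barcodes, with 3 of 13, and -0.45 in endothelial cells, with 4 of 21. The genes compared differ between the kinds of cell, so the medians do not cover the same set. Fos had a log2 ratio of -1.26 in mural cells, -1.27 in insulin-rich barcodes and -0.58 in endothelial cells. Zfp36, which encodes an RNA-binding protein that destabilises cytokine messages, had -2.10 in fibroblasts, -0.71 in mural cells and -0.08 in endothelial cells. Socs3 and Atf3 were more than 2-fold lower in the other cells too, at -2.29 and -2.11 in mural cells and -1.55 and -1.83 in endothelial cells. Klf2, Klf4 and Klf6 were further down in mural cells than in fibroblasts. They stood at -0.18, -1.35 and -0.39 in fibroblasts and at -1.65, -1.78 and -0.54 in mural cells. Between late and early db/db the same list had medians of 0.28 in fibroblasts, 0.07 in mural cells, -0.04 in insulin-rich barcodes and -0.15 in endothelial cells.

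**Figure D3:**
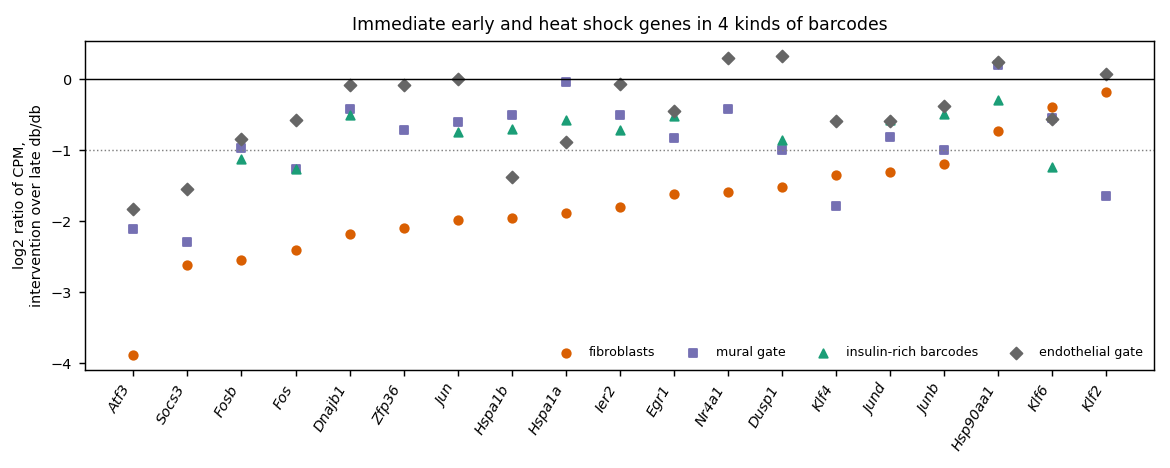
Log2 ratio of CPM, intervention over late db/db, for 19 immediate early and heat shock genes in fibroblasts, mural cells, insulin-rich barcodes and endothelial cells, where each gene had enough counts. All 19 fibroblast points lie below 0, and 16 lie below the dotted line at -1.

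Many of these genes respond through serum response factor, which binds CArG boxes, or through CREB and ATF factors, which bind TGACGTCA. Promoter windows from 250 bases before to 50 after the start (RefSeq, GRCm38.p6) were found for 18 of the 22 genes of the full list, with 19 windows. They include Ier3 and Hspb1, which had too few counts in fibroblasts for this comparison. Egr1, Ier2, Hsp90aa1 and Myc had no window. Sites farther from the start were not searched, so the counts below do not show how many of the lower genes have such sites. A CArG box on either strand was in 1 window (5.26%) and TGACGTCA, which reads the same on both strands, in 1 (5.26%), against 1.63% and 1.79% of all 32851 windows. The stretches around both matches are shown because Zfp36 and Dusp1, a phosphatase gene that switches off MAP kinases, were among the lower genes (333 against 1429 CPM and 560 against 1605 CPM). Capitals mark the match. The Dusp1 stretch is chr17:26508583-26508640 on the minus strand, with the match 143 to 136 bases upstream of the start, and the Zfp36 stretch is chr7:28379252-28379311 on the minus strand, with the match 58 to 49 bases upstream. A match describes the letters only.
Dusp1: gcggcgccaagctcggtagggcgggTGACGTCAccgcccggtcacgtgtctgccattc
Zfp36: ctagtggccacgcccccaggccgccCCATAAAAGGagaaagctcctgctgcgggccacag

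Most compared chemokines were lower. Ccl11 stood at 293 against 1486 CPM (-2.34, -2.84 to -1.87), and was also lower in mural cells (-1.79) and insulin-rich barcodes (-4.46) of the same libraries. Cxcl14 stood at 360 against 2144 (-2.57, -3.01 to -2.16) and Cxcl12, which retains CXCR4-bearing cells, at 587 against 1633 (-1.48, -1.84 to -1.13). Il6 and Ccl2 had 2 and 1 UMIs against 49 and 51. Of 8 compared chemokines and cytokines 6 were at least 2-fold lower (these 5 and Cxcl1), with a median of -2.46, and -2.52 within sub-cluster 2. C3 was lower (-1.74, -2.06 to -1.43), while C4b (580 against 250 CPM) and C2 (253 against 113 CPM) were higher, making 2 higher and 1 lower of 8 compared complement genes. Within sub-cluster 2 C3 stood at 622 against 2786 CPM.

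Col1a1, Col1a2 and Col3a1 were used in the choice of cells, so their values are a description. Col1a1 stood at 7977 against 2098 CPM (1.93, 1.76 to 2.10), Col1a2 at 11846 against 4026 (1.56, 1.43 to 1.68) and Col3a1 at 12020 against 4310 (1.48, 1.36 to 1.60), and the other 7 of 10 compared collagens did not pass 2-fold. The list's median was 0.84. By the mean over cells 1 collagen passed. A single intervention fibroblast held 329 of the 1196 Col1a1 UMIs, and without the cell with most collagen in each library the median was 0.54 with 3 of 10 still past 2-fold. Within sub-cluster 2 Col1a1 stood at 9237 against 2667 CPM, with 5 of 9 collagens higher.

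Other matrix genes divided. Mfap4 led all named genes, with 1407 CPM in 27 of 32 cells against 136 in 4 of 25 cells (3.37, 2.76 to 4.04). Cst3 stood at 8931 against 2127 CPM (2.07, 1.90 to 2.24) and Sparc at 11746 against 3612 (1.70, 1.57 to 1.83). Both were higher in mural cells as well, by 0.81 and 0.80. Cilp, which encodes cartilage intermediate layer protein, stood at 680 against 159 CPM (2.10), Itgbl1 at 460 against 113 (2.02), Gas6 at 2028 against 539 (1.91) and Igfbp6 at 1634 against 522 (1.65). Of 28 compared proteoglycans and glycoproteins 6 were higher (Fbln5, Mfap4, Mfap5, Postn, Sparc and Thbs2) and 5 lower (Fmod, Ogn, Fbln2, Dpt and Thbs1). Thbs1 stood at 140 against 941 CPM (-2.75, -3.48 to -2.09). Among 16 compared proteases and inhibitors Mmp23, Ctsk and Cpxm1 were higher, and the lower ones included Adamts1, Adamts5, Htra1 and Serpine2. Of the 7 compared genes of collagen processing 0 passed 2-fold. The secretory pathway genes Fkbp11 (293 against 56.7 CPM, 2.37) and Ssr4 (1614 against 482 CPM, 1.74) were among the 12 leading higher genes, with Lbp (1.88), Csrp2 (1.87) and Fgl2 (1.86). Ssr4 stood at 0.94 when cells with a UMI of Epcam, Krt18 or Krt8 were left out. Of these higher genes, Cst3, Sparc, Cilp, Mfap5, Fbln5 and Ctsk are among the leading genes of sub-cluster 2. Mfap4, Itgbl1, Gas6 and Fgl2 are among those of sub-cluster 3. The 2 sub-clusters held 26 and 6 of the 32 intervention fibroblasts, against 10 and 1 of 25 in late db/db. The part of this mix in the levels was not tested.

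Scara5, Lpl and Gsn were lower. Scara5 had 3 UMIs in the intervention library against 63 in late db/db (-4.16, -6.47 to -2.55), Lpl stood at 447 against 2416 CPM (-2.43, -2.83 to -2.06) and Gsn at 3562 against 16321 (-2.20, -2.33 to -2.06). All 3 are leading genes of sub-cluster 0, in which the intervention had 0 cells. Within sub-cluster 2 Lpl stood at 451 against 1716 CPM and Gsn at 3776 against 10245. Of 10 compared parenchymal genes 4 were lower (Hspg2, Lpl, Cxcl12 and Inmt) and 0 higher, with a median of -0.70. Of 5 compared genes of retinoid and lipid handling Lpl alone was lower, with a median of -0.24. The basement membrane list had 2 of 8 lower, Lamb1 and Hspg2, with a median of -0.80 and of 0.00 within sub-cluster 2. Pdgfra, used in the choice of cells, stood at 233 against 505 CPM. The adventitial list divided, with Ly6a and Mfap5 higher and Cd34 and Clec3b lower of 4 compared. Ebf1, a mesenchymal transcription factor gene, was lower (307 against 851 CPM), as were the metallothioneins Mt1 and Mt2. Sdc4 (-2.69) and Fam198b (-2.11) were also among the 12 leading lower genes. Ctrb1, a digestive enzyme gene of acinar cells, was lower as well (60.03 against 386 CPM), beside acinar sums of 918 against 3295 CPM in the rest of the libraries.

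**Figure D4:**
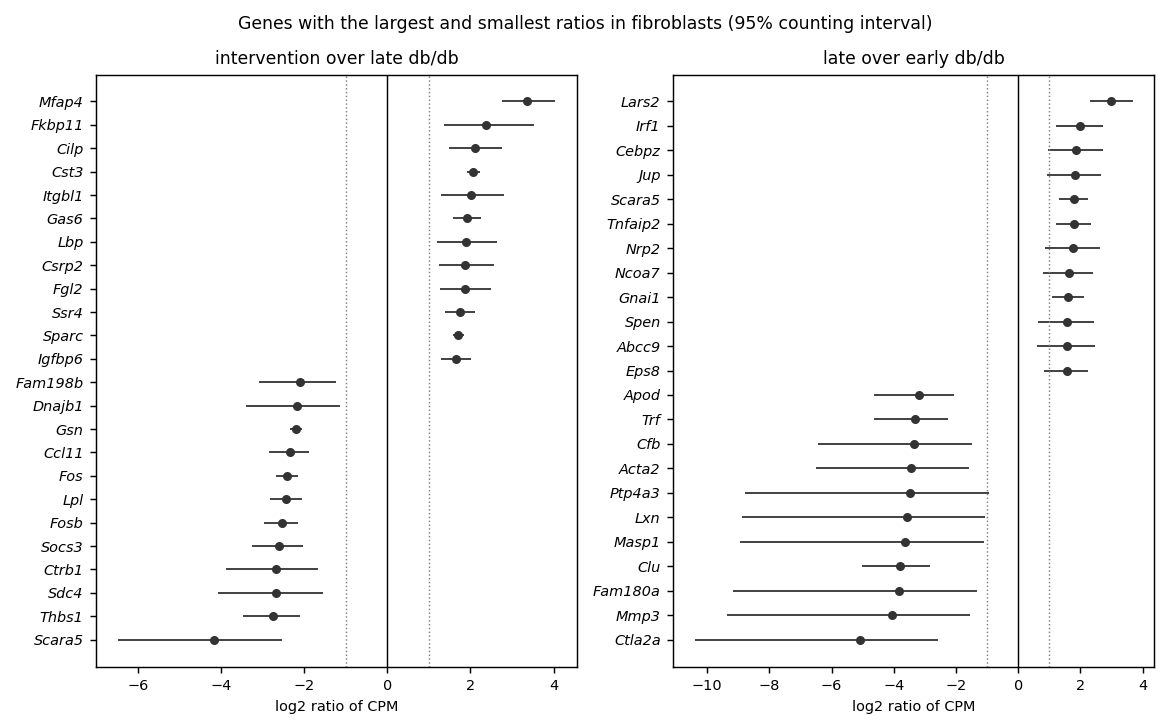
Log2 ratios of CPM with 95% counting intervals for the 12 genes with the largest and the 12 with the smallest ratio among those past 2-fold, for the intervention over late db/db and for late over early db/db. H19, at 0 UMIs in late db/db, has no ratio and is not drawn, and the interval of Mfap4 at the top runs from 2.76 to 4.04.

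Both comparisons share the late db/db library, so genes that stand apart in both are not independent observations. For Mfap4 the levels were 1407, 136 and 754 CPM in the intervention, late db/db and early db/db fibroblasts, and for Thbs1 140, 941 and 331. Scara5 stood at 20.01, 357 and 103 CPM, and Socs3 at 180, 1100 and 540.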

How the data were processed

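Single-cell RNA of 4 islet libraries was deposited as UMI counts, whole numbers for 30905 genes per barcode with no normalization. Per the file headers, matrices were written by software version 3.0.0. The labels' protocols name 10x 3′ v3 chemistry, and the submitters' processing notes name build mm10, CASAVA 1.8, Cell Ranger and Seurat. No annotation release is named in the sources used.

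Fibroblasts were chosen by the rule in the report and their counts summed per library (Python 3.11.15, scipy 1.17.1). The CPM denominator left out mitochondrial and 7 hormone genes. Genes were compared where the higher library reached 50 CPM and the UMIs of both summed to 50, and were counted at 2-fold or more. Intervals are exact conditional binomial (ratios) or Clopper-Pearson (shares) at 95%. Sub-clusters came from scanpy 1.11.5 (1000 variable genes, 20 principal components, 15 neighbours, Leiden resolution 0.5). Named genes were the 12 largest and 12 smallest ratios, leaving out predicted genes and genes with over 25% of UMIs in 1 cell, and members of 19 gene lists. The members and lists were chosen with earlier results of these data known. The ratios and intervals were checked on simulated counts. In them 200 genes were changed by known folds, and 4.68% of the unchanged genes passed 2-fold for late against early db/db, beside 12.2% in the data. For the intervention against late db/db these shares were 1.53% and 20.3%. The simulated sums held no spread between cells, and rescaling after the change also shifted the unchanged genes. They therefore give no background level for the shares in the data. Total UMIs per library ranged from 120934779 to 166034254. Doublets were not removed from the main values. Leaving out the highest Scrublet scores took out 5 fibroblasts of early db/db and 0 elsewhere. Alternatives included edgeR 4.0.16 TMM scaling. Gene promoters are from RefSeq, GRCm38.p6.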

Additional observations from a re-analysis of the deposited data

How the results depend on the processing

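Under the alternatives, 74 values of main counts and shares stayed and 12 moved. For late against early db/db, the 176 higher genes became 92 under TMM scaling, all 92 among the 176. Chosen after seeing the data, the count within sub-cluster 0 was 34 higher and 98 lower, and within sub-cluster 2 it was 77 higher. For the intervention against late db/db, the 75 higher genes became 128 by the mean over cells, and the 119 lower became 56 within sub-cluster 2. The smaller counts within sub-clusters come with fewer genes entered, 1398, 1272 and 536. Shares of early db/db fibroblasts with a UMI were 41.3% (Pi16), 7.78% (Dpp4), 72.5% (Col15a1), 84.4% (Penk), 18.6% (Acta2) and 17.4% (Tagln) unthinned. Of the values of single genes, 557 stayed, 39 moved and 4 reversed. These were Clu at 2.57 within sub-cluster 2 and 2.07 outside sub-cluster 1, and Trf at 1.57 and Dnajb1 at 1.45 within sub-cluster 2. The reversed ratios rest on few UMIs. In all its fibroblasts late db/db held 8 UMIs of Clu and 7 of Trf, and the intervention library held 9 of Dnajb1. The cause was not tested. No paired analysis was possible because each group has 1 library. Without a minimum CPM, 3917 genes were compared between late and early db/db in place of 3471, and between the intervention and late db/db the number stayed at 956.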
